A study of Mus musculus with 14 samples.

Results

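The comparison described here is that of pressure overload with sham surgery in mouse hearts that received a JP2NT vector. Its 7 libraries, 4 labelled TAC+JP2NT and 3 labelled Sham+JP2NT, were chosen by their labels from the 14 libraries of the study. The animals were male C57BL/6N mice that at 9 to 10 weeks of age underwent either a sham operation or transverse aortic constriction (TAC), a narrowing of the aorta. After 2 weeks, echocardiography selected 30 TAC mice with an ejection fraction of 40 to 60% and 10 sham mice with normal function. They then received an AAV2/9 virus by tail vein, carrying JP2NT or, in the 3 Sham+GFP and 4 TAC+GFP libraries used here for contrast, GFP, at 1e12 viral genomes in 100 ul. Both JP2NT groups therefore carried the vector, and no library of an animal without virus was analysed here. Ventricles were taken 8 weeks after surgery, 6 weeks after the virus. The labels name neither the promoter that drives the vector nor the insert's sequence, and they leave unsaid whether every library is a mouse of its own. The p-values below treat the libraries as independent samples and measure only the spread between them.

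A heart that pumps against raised pressure enlarges its cardiomyocytes, returns to genes of the fetal program such as beta myosin and the natriuretic peptides, lowers genes of fatty acid use, and lays down matrix. Junctophilin-2 holds the T-tubule membrane close to the sarcoplasmic reticulum, where calcium release is triggered. It is cleaved by calpain under stress, and JP2NT, its N-terminal fragment, can enter the nucleus of the cardiomyocyte. The series title names JP2NT as a gene therapy for hypertrophy and heart failure. The question addressed here is which overload changes were still measured when JP2NT was given.

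All values are deposited scaled counts, rescaled jointly over the 14 libraries, and a value of 1 is close to 1 read. Log2 fold changes are TAC minus sham on the log2(value + 1) scale, which understates the change of low genes. Reads per library were estimated at 8584480 to 14450390, in the JP2NT libraries as in the whole study. Replicates 1 and 2 of Sham+JP2NT were almost as alike as reads counted from the same library would be: their ratio of observed to counting variance was 1.33 over genes with at least 50 reads, against 2.38 to 28.9 in the other 17 pairs within groups. They were averaged and counted as 1 sample, so the sham side has n = 2 and the TAC side n = 4. TAC+JP2NT replicate 4 stood apart. On the first principal component, which held 50.8% of the variance, it lay at -2.3, between the sham libraries of both vectors (-41.5 to -34.4) and the other 3 TAC+JP2NT libraries (23.4 to 27.4). Sham+JP2NT replicate 3, the only sham library outside the averaged pair, moved the number of genes called the most. Below, values without it keep the pair averaged, which leaves 1 sham sample, unless libraries are said to be otherwise separate.

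Of 13212 tested genes, 4221 (31.9%) passed the limma test between TAC+JP2NT and Sham+JP2NT at a Benjamini-Hochberg adjusted p under 0.05, with 2131 (16.1%) higher and 2090 (15.8%) lower after TAC. With all libraries taken as separate samples, 5372 of 13246 genes (40.6%) passed, 2689 higher (20.3%) and 2683 lower (20.3%). Without Sham+JP2NT replicate 3 the count was 1870, or 4406 with libraries otherwise separate, and without TAC+JP2NT replicate 4 it was 4980. The 16.1% and 15.8% of all tested genes are the shares to set beside the counts of list members below. Most changes were small. The median change was 1.53-fold among genes that rose and 1.38-fold among those that fell, while 439 (3.32%) rose and 186 (1.41%) fell by at least 2-fold. The values of the 4 TAC and 3 sham libraries did not overlap for 4009 of the called genes, and for 5749 (43.5%) of all tested genes. Scaling the libraries to equal totals moved the split to 2968 higher and 1301 lower, with the median of all genes at 0.11 on the log2 scale in place of 0.0038.

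Jph2 itself, the gene that JP2NT derives from (chr2:163336242-163397993, minus strand, mm10), had values of 6820.2, 6883 and 7143 in the sham libraries and 6054, 6142, 6354 and 6757 in the TAC libraries. Every TAC library lay below every sham library, by little: the log2 fold change was -0.15, with a 95% interval of -0.30 to 0.01 and a limma adjusted p = 0.131. With all libraries separate the limma adjusted p was 0.0788. Without TAC+JP2NT replicate 4 the change was -0.18 and did not pass (limma adjusted p = 0.05). Without that library and with libraries otherwise separate, a setting chosen after seeing the data, it was -0.17 and passed (limma adjusted p = 0.0247). The exact two-sided permutation p was 0.133 with the averaged pair and 0.0571 with 7 separate libraries, the smallest p that each design allows. Under GFP the log2 fold change was -0.37 (limma adjusted p = 0.000266), and the difference between the vectors was 0.22 (95% interval 0.018 to 0.42, limma adjusted p = 0.405). The level was 6997 ± 206 (SD, n = 2) in Sham+JP2NT and 7909.8 ± 261 (SD, n = 3) in Sham+GFP. It was 6327 ± 313 (SD, n = 4) in TAC+JP2NT and 6141 ± 332 (SD, n = 4) in TAC+GFP. Whether vector RNA would be counted under this gene was not tested.

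The genes of hypertrophic stress rose most. Of 15 tested members, 13 rose and 0 fell, with a median log2 fold change of 1.86 against 0.0038 for all genes. The list's mean in the TAC libraries 1 to 4 was 1.92, 1.82, 2.17 and 1.57 log2 units above sham, so all 4 libraries, TAC+JP2NT replicate 4 included, showed the rise. Without Sham+JP2NT replicate 3, 10 rose. The promoters of 3 members are shown because these genes rose together in every TAC library while their promoters differ in the motifs they hold. They are the 250 bases before the transcription start in RefSeq on GRCm38.p6, 5′ to 3′ on the gene's strand, with capitals marking the MCAT motif CATTCC (or GGAATG, its reverse complement), the motif of TEAD factors, and the CArG box, the motif of serum response factor.
Acta1, chr8:123894776-123895025, minus strand: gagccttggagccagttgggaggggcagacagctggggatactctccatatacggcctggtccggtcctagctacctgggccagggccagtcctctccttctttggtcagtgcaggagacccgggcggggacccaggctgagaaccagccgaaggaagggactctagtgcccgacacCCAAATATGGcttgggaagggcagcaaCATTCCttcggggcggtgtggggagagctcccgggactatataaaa
Myh7, chr14:54994627-54994876, minus strand: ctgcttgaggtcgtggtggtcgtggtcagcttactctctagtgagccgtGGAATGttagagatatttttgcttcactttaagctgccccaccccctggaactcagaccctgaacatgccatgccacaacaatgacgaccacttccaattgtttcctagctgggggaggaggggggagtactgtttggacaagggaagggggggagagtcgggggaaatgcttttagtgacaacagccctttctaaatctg
Nppa, chr4:148000472-148000721, plus strand: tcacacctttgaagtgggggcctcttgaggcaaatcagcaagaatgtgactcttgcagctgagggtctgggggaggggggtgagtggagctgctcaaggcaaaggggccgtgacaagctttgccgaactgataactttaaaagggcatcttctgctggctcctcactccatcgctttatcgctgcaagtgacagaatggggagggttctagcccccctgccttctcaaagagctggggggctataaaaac
The Acta1 window holds the MCAT motif 41 to 46 bases and the CArG box 64 to 73 bases before the start, the Myh7 window shown an MCAT motif 196 to 201 bases before it (a window at a second Myh7 start in RefSeq holds neither), and the Nppa window neither. Searched on both strands, CATTCC was present in 6 of 21 windows of the list's members (28.6%, with 15 of 16 members matched) and in 12.6% of all 32851 windows. The CArG box was in 2 of 21 (9.52%) and in 1.47%. Of the other motifs searched, AAGGTCA was in 4.76% and 4.08%, and AGATAA in 14.3% and 9.99%. In other lists CATTCC ranged from 0% of windows (TCA cycle) to 18.5% (fatty acid uptake and oxidation). The CArG box was in 21.1% of windows of immediate early genes. A match is a run of letters and not a measured site.

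Myh7, the slow beta myosin heavy chain of the fetal ventricle (chr14:54970684-54994626, minus strand), had values of 3158, 3139 and 2541 in the sham libraries and 51221, 37312, 57178 and 57182 in the TAC libraries. The groups were far apart, and TAC+JP2NT replicate 4 was as high as the others (log2 fold change 4.14 ± 0.20 SE, limma adjusted p = 4.32e-08). Reads of Myh7 and of the antisense transcript Mhrt share the locus, and no label states whether reads were counted by strand. The atrial natriuretic peptide gene Nppa stood at 8840.4, 8703 and 6651 in the sham libraries and 20898, 26336, 44063 and 24468 in the TAC libraries. It was higher in each TAC library, most so in replicate 3 (log2 fold change 1.86 ± 0.34 SE, limma adjusted p = 0.00118). The B-type natriuretic peptide gene Nppb was at 1523, 1548 and 2533 in the sham libraries and 19072, 12179, 18064 and 15216 in the TAC libraries, again with no overlap and with replicate 2 the lowest of the TAC libraries (log2 fold change 3.01 ± 0.20 SE, limma adjusted p = 1.49e-06).

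Skeletal alpha-actin, Acta1, had values of 4218, 4292 and 7500.4 in the sham libraries and 59146, 58189, 64768 and 39528 in the TAC libraries. Sham replicate 3 was the highest sham library and TAC replicate 4 the lowest TAC library, and the groups did not overlap (log2 fold change 3.27 ± 0.36 SE, limma adjusted p = 4.38e-05). Ankrd1, a titin-binding stretch-response protein, was at 11328, 11254 and 12461 in the sham libraries and 52711, 55149, 73431 and 40411 in the TAC libraries (log2 fold change 2.19 ± 0.17 SE, limma adjusted p = 2.87e-06). The sham values were close together and no TAC library overlapped them. Further members that rose were Xirp2 (1.98), an actin-binding protein of the intercalated disc, Rcan1 (1.84), an inhibitor and target of calcineurin, Fhl1 (1.27), a LIM protein that binds titin, and the Z-disc and myofibril proteins Flnc (0.66), Nrap (0.62) and Actn1 (0.33). Gdf15, a stress cytokine, also rose (log2 fold change 2.77 ± 0.63 SE, limma adjusted p = 0.00478, and 0.0542 without Sham+JP2NT replicate 3). Ankrd2, another stretch-response gene, had few reads in sham, with values of 4.8, 4.56 and 0 in the sham libraries and 45.7, 26.8, 24.6 and 19.8 in the TAC libraries (log2 fold change 3.60 ± 0.73 SE, limma adjusted p = 0.00237, and 0.069 without Sham+JP2NT replicate 3). Actn1 did not pass without Sham+JP2NT replicate 3. The members that did not pass in the averaged fit were Xirp1 at 0.25 and Myh7b at 0.23, and Tnni1 was too low to test.

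**Figure D1:**
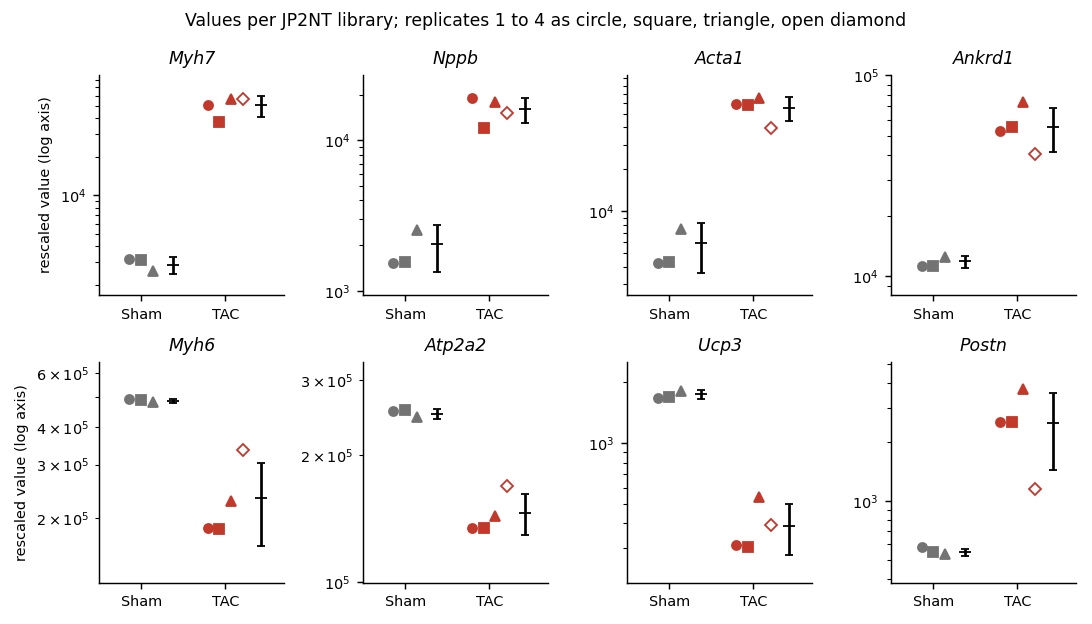
Rescaled values (log axis) of 8 genes in the 3 Sham+JP2NT and 4 TAC+JP2NT libraries, 1 point per library, with bars for the mean ± SD (n = 2 with the sham pair averaged, n = 4 for TAC). Myh7, Nppb, Acta1, Ankrd1 and Postn lie higher and Myh6, Atp2a2 and Ucp3 lower in every TAC library. TAC+JP2NT replicate 4 is nearest to sham for Postn, Acta1, Ankrd1, Myh6 and Atp2a2, but not for Myh7, Nppb or Ucp3.

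Among contractile genes the alpha myosin fell. Myh6, the fast alpha myosin heavy chain of the adult mouse ventricle (chr14:54941921-54966927, minus strand), had values of 495414, 488281 and 481884 in the sham libraries and 185902, 183309, 227429 and 336029 in the TAC libraries. All 4 TAC libraries were lower, replicate 4 the least so (log2 fold change -1.11 ± 0.21 SE, limma adjusted p = 0.00157). Myh6 alone held 4.23 to 4.37% of all values in the sham libraries and 1.75, 1.78, 2.18 and 3.07% in the TAC libraries. Of the 22 sarcomere and Z-disc genes, 3 rose and 4 fell (median -0.12), close to the 16.1% and 15.8% of all tested genes. Those that rose were Myot (1.19), which crosslinks actin at the Z-disc, Csrp3 (0.80), a Z-disc LIM protein, and Ttn (0.38), the giant spring of the sarcomere. Besides Myh6, those that fell were cardiac troponin I, Tnni3 (-0.59), the cardiac myosin light chain kinase Mylk3 (-0.38) and tropomyosin Tpm1 (-0.31). With separate libraries 6 fell, without TAC+JP2NT replicate 4 it was 7, and without Sham+JP2NT replicate 3 it was 2. Ttn, Mylk3 and Tpm1 were not called without that sham library. Ventricular myosin light chain Myl2 was at -0.13 and cardiac troponin T, Tnnt2, at -0.14, and neither passed.

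The gene of the calcium pump fell. Of 23 genes of calcium handling and the dyad, the junction where junctophilin-2 works, 3 rose and 6 fell (median -0.15, and 0.0098 without TAC+JP2NT replicate 3), and 2 fell without Sham+JP2NT replicate 3. With separate libraries 5 rose, and as many without TAC+JP2NT replicate 4. Of all tested genes 16.1% rose and 15.8% fell in the averaged fit. Atp2a2, the SERCA2 calcium pump, had values of 254380, 254485 and 245153 in the sham libraries and 134494, 134129, 143456 and 169102 in the TAC libraries. Every TAC library was below every sham library, replicate 4 the nearest to them (log2 fold change -0.79 ± 0.14 SE, limma adjusted p = 0.000973). Hrc, which binds calcium inside the sarcoplasmic reticulum, fell by the most among the called members (log2 fold change -0.87 ± 0.096 SE, limma adjusted p = 4.38e-05). Jph1, the second junctophilin of muscle, also fell (log2 fold change -0.50 ± 0.14 SE, limma adjusted p = 0.0163, and 0.141 without Sham+JP2NT replicate 3). The release channel Ryr2 fell (-0.42), as did the L-type channel subunit Cacna1c (-0.40) and the pump's inhibitor phospholamban, Pln (-0.35), but these 3 did not pass without Sham+JP2NT replicate 3. S100a1, a calcium sensor that aids SERCA2 and RyR2, rose (0.41), together with Asph (0.36), whose gene also encodes the dyad protein junctin, and the kinase Camk2d (0.35). Triadin, Trdn (0.12), calsequestrin, Casq2 (0.18), and the sodium-calcium exchanger Slc8a1 (0.081) did not pass.

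Ion channels were lower as a group. Of 26 potassium and sodium channel genes, 17 fell and 2 rose, with a median of -0.56, with 19 falling with separate libraries and 13 without Sham+JP2NT replicate 3. The silent subunit Kcnv2 stood at 156, 139.6 and 161 in the sham libraries and 40.3, 41.2, 21.9 and 88.5 in the TAC libraries, apart in every library (log2 fold change -1.84 ± 0.37 SE, limma adjusted p = 0.00217). The sodium channel Scn4a was lower (log2 fold change -1.42 ± 0.19 SE, limma adjusted p = 0.000141), as was Kcnj2, which carries the inward rectifier current that sets the resting potential (log2 fold change -1.25 ± 0.17 SE, limma adjusted p = 0.000185). Kcnip2, the subunit of the transient outward current, fell by 0.82, the KATP channel subunits Abcc9 and Abcc8 fell by 0.67 and 0.70, and the pacemaker channels Hcn2 and Hcn4 fell by 0.81 and 0.80 on the log2 scale. The channels that rose included Kcna5 (1.24), of the ultrarapid potassium current. Hcn4 and 1 of the risers did not pass without Sham+JP2NT replicate 3.

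Of 13 intercalated disc genes, 2 fell and none rose: the desmosomal cadherin Dsg2 (log2 fold change -0.66 ± 0.12 SE, limma adjusted p = 0.00156) and the scaffold Tjp1 (log2 fold change -0.31 ± 0.098 SE, limma adjusted p = 0.0276, and 0.114 without Sham+JP2NT replicate 3). Of all tested genes 15.8% fell and 16.1% rose, so the share of disc genes that fell was close to that of all genes. Connexin 43, Gja1, was lower in every TAC library without passing (-0.32). Among 14 adrenergic genes, 4 fell and 1 rose. Those that fell were the receptor Adra1b (-1.35), the phosphodiesterase Pde4d (-0.62), protein kinase A's catalytic subunit Prkaca (-0.42) and the stimulatory G protein Gnas (-0.30), and the receptor kinase Grk5 rose (0.58). Pde4d and Grk5 did not pass without Sham+JP2NT replicate 3, nor Pde4d without TAC+JP2NT replicate 3. With separate libraries 7 adrenergic and 4 intercalated disc genes fell, and 7 adrenergic genes did without TAC+JP2NT replicate 4. Tjp1 did not pass without TAC+JP2NT replicate 1 or 2. The beta-1 receptor, Adrb1, was at -0.49 (limma adjusted p = 0.107).

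In the natriuretic, angiotensin and endothelin systems 6 of 17 genes rose and 6 fell, which became 4 and 2 without Sham+JP2NT replicate 3. The ligands Nppa, Nppb and endothelin-3, Edn3 (2.63), rose, together with angiotensin-converting enzyme, Ace (0.74), and the receptors Ednrb (1.04) and Npr3 (0.51), the latter of which clears natriuretic peptides. Edn3 had values of 25.6, 26.3 and 78.3 in the sham libraries and 241, 291, 469.8 and 199 in the TAC libraries, with no overlap. The proteases that process natriuretic peptides fell, Corin by 0.68 and Furin by 0.32, as did their signalling receptors Npr1 (-0.37) and Npr2 (-0.29). Angiotensinogen, Agt, fell by 0.85 and the type 1 receptor Agtr1a by 0.57, and Agtr2 was listed at 0 in all 7 libraries. Ednrb, Npr3, Furin, Npr1, Npr2 and Agt did not pass without that sham library.

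Among 22 cardiac transcription factors and their class II deacetylases, 4 rose and 6 fell. Risers were Tbx20 (0.86), Hand2 (0.81), Tead1 (0.54) and Myocd (0.47). Those that fell were Tbx5 (-1.03), Hdac5 (-0.59), Hdac4 (-0.57), Mef2d (-0.54), Gata6 (-0.40) and Nfatc2 (-0.37). Tead1 encodes a factor that binds the MCAT motif shown above. Myocd and Gata6 did not pass without Sham+JP2NT replicate 3. Gata4 (-0.23), Mef2c (0.12) and Srf (0.14) did not pass.

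**Figure D2:**
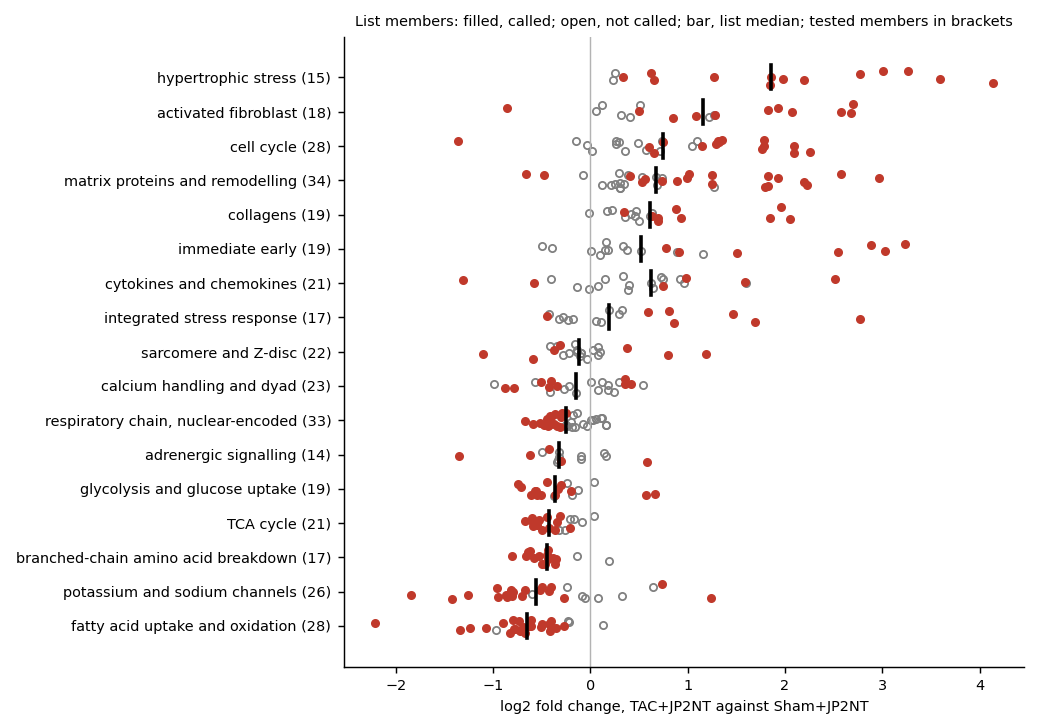
Log2 fold change, TAC+JP2NT minus Sham+JP2NT, of the tested members of 17 gene lists. Filled points passed the limma test at an adjusted p under 0.05, open points did not, and the bar marks the list's median, which runs from 1.86 for hypertrophic stress to -0.65 for fatty acid oxidation.

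Genes of fuel use fell broadly. Of 28 genes of fatty acid uptake and oxidation, 24 fell and none rose (median -0.65), with 25 in separate libraries and 21 without Sham+JP2NT replicate 3. Ucp3, a mitochondrial carrier induced with fatty acid use, had values of 1674, 1699 and 1816 in the sham libraries and 312, 304, 539 and 391 in the TAC libraries. It was several-fold lower in each TAC library (log2 fold change -2.21 ± 0.32 SE, limma adjusted p = 0.000248). The fatty acid transport protein Slc27a1 stood at 2618, 2400.3 and 2197 in the sham libraries and 802, 825, 841 and 1325 in the TAC libraries (log2 fold change -1.34 ± 0.17 SE, limma adjusted p = 0.000124) and the mitochondrial thioesterase Acot2 at 1050.2, 1080.4 and 1055 in the sham libraries and 419, 421, 418 and 551 in the TAC libraries (log2 fold change -1.24 ± 0.18 SE, limma adjusted p = 3e-04). For both, TAC replicates 1 to 3 were close together and replicate 4 lay between them and sham. At the entry of fatty acids into mitochondria, Cpt1b (-0.63), Cpt2 (-0.77) and Slc25a20 (-0.73) fell, and in the beta-oxidation spiral so did Acadvl (-0.61), Acadm (-0.36), Hadha (-0.83) and Acaa2 (-0.90). Cd36, the membrane carrier, fell by 0.27 and did not pass without that sham library. The members that did not pass were Pdk4 (-0.97), Lpl (-0.22), Echs1 (-0.23) and the binding protein Fabp3 (0.13).

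The TCA cycle and the respiratory chain were lower too. In the TCA cycle 15 of 21 genes fell and none rose (median -0.43), with 20 falling without TAC+JP2NT replicate 4 and 13 without Sham+JP2NT replicate 3. Citrate synthase, Cs, had values of 23664, 23445 and 23095 in the sham libraries and 13945, 13878, 14497 and 16176 in the TAC libraries (log2 fold change -0.68 ± 0.075 SE, limma adjusted p = 4.38e-05). The sham values were nearly equal and every TAC value was lower. Sdha, the catalytic subunit of complex II, fell (-0.60), as did Idh3a (-0.60) and Ogdh (-0.58). Of 33 nuclear genes of the respiratory chain, 16 fell and none rose, by less (median -0.25), and 10 fell without Sham+JP2NT replicate 3. They included Uqcrc1 (-0.67) of complex III and the ATP synthase subunits Atp5a1 (-0.59) and Atp5b (-0.51), while small subunits such as Ndufa4 (0.11), Ndufb8 (0.16) and Cox7b (0.06) did not pass. The 9 mitochondrially encoded genes of the fixed list were not analysed here.

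Genes of glucose use were lower as well. Among 19 genes of glycolysis and glucose uptake, 12 fell and 2 rose (median -0.36). The insulin-responsive transporter Slc2a4 fell by 0.75 and the enolase Eno1 by 0.71 on the log2 scale. Hk2, Pfkm, Aldoa, Eno3, Pkm, Ldha and Ldhb fell by 0.36, 0.56, 0.57, 0.50, 0.61, 0.33 and 0.54. The members that rose were Pfkp (0.67), the platelet-type phosphofructokinase, and Pgam1 (0.57). Slc2a1, the basal glucose transporter, was lower in all 4 TAC libraries without passing (-0.38). Of 14 metabolic regulators, 3 nuclear receptors fell, Rxra (-0.58), Esrrb (-0.52) and Esrra (-0.43), while Ppara (0.097) and the coactivator Ppargc1a (0.25, limma adjusted p = 0.149) did not pass. Of these regulators 5 fell with separate libraries and 7 without TAC+JP2NT replicate 4. Ldha did not pass without Sham+JP2NT replicate 3.

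Branched-chain amino acid breakdown fell in 15 of 17 genes (median -0.45), among them Bckdhb (-0.81) and Bckdha (-0.58) of the rate-limiting dehydrogenase, Mccc2 (-0.66) and the activating phosphatase Ppm1k (-0.64). In the creatine system 3 of 8 genes fell, with the muscle creatine kinase Ckm at -0.74, adenylate kinase Ak1 at -0.40 and Ckmt2 at -0.22, and the creatine transporter Slc6a8 rose (log2 fold change 0.23 ± 0.08 SE, limma adjusted p = 0.0386, and 0.173 without Sham+JP2NT replicate 3). In NAD metabolism 3 of 17 genes rose and 7 fell. Nmrk2, the muscle nicotinamide riboside kinase, had values of 31.7, 44.8 and 38.4 in the sham libraries and 377, 294, 485 and 293 in the TAC libraries. Its rise was among the steepest of all lists and present in each library (log2 fold change 3.17 ± 0.68 SE, limma adjusted p = 0.00328). Nampt, which makes NAD from nicotinamide, fell by 0.46 and the mitochondrial transhydrogenase Nnt by 0.80. The other members that rose were Nnmt (0.77) and Bst1 (0.88). Bst1 did not pass without Sham+JP2NT replicate 3 (limma adjusted p = 0.3), Sham+JP2NT replicate 2 (0.101) or TAC+JP2NT replicate 2 (0.0854). Ckmt2 did not without Sham+JP2NT replicate 3 or TAC+JP2NT replicate 4, nor Slc6a8 without TAC+JP2NT replicate 3.

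Matrix genes rose, with the least rise in TAC+JP2NT replicate 4. Of 18 activated fibroblast genes, 10 rose and 1 fell (median 1.16), and 8 rose without Sham+JP2NT replicate 3. Postn, the periostin of activated cardiac fibroblasts (chr3:54361109-54391037, plus strand), had values of 578, 549 and 532 in the sham libraries and 2547, 2546, 3735 and 1152 in the TAC libraries. All TAC libraries exceeded sham, replicate 3 the most and replicate 4 the least (log2 fold change 2.07 ± 0.34 SE, limma adjusted p = 0.000632). The other members that rose included Cilp (2.68), a matrix protein of the intermediate layer, Meox1 (1.93), a regulator of fibroblast activation, Lox (1.83), which crosslinks collagen, and Aspn (1.28) and Comp (1.09), matrix proteins, of which Comp did not pass without that sham library. Acta2, smooth muscle actin, was the member that fell (-0.86). Cthrc1, a marker of matrix-producing fibroblasts, was higher in every TAC library but did not pass (1.22, limma adjusted p = 0.163).

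Among 19 collagens 9 rose and none fell (median 0.62), which became 15 with separate libraries, 17 without TAC+JP2NT replicate 4 and 4 without Sham+JP2NT replicate 3. The short-chain collagens Col8a1 (2.05) and Col8a2 (1.96) and the fibril-associated Col12a1 (1.84) rose most. Col1a1, the main fibrillar collagen, had values of 1134, 1059 and 1317 in the sham libraries and 1988, 2042, 2406 and 1236 in the TAC libraries. TAC replicate 4 lay within the sham range and the other 3 above it (log2 fold change 0.63 ± 0.23 SE, limma adjusted p = 0.0493, and 0.109 without Sham+JP2NT replicate 3). It passed at an adjusted p of 0.00314 without TAC+JP2NT replicate 4, but not when TAC+JP2NT replicate 1, 2 or 3 or Sham+JP2NT replicate 2 was left out (0.0558 to 0.111). Col3a1 stood at 2332, 2469.6 and 3016 in the sham libraries and 4147, 4342, 5898 and 2877 in the TAC libraries, with the same overlap. It did not pass with the pair averaged (log2 fold change 0.64 ± 0.24 SE, limma adjusted p = 0.0562), but did with separate libraries (limma adjusted p = 0.0137) and without replicate 4 (0.00728).

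Of 34 other matrix and remodelling genes, 17 rose and 2 fell (median 0.68), while 24 rose with separate libraries and 14 without Sham+JP2NT replicate 3. Thbs1, which activates latent TGF-beta, had values of 117, 123 and 108 in the sham libraries and 1597, 1699, 658 and 362 in the TAC libraries. The first 2 TAC libraries were the highest and replicate 4 the lowest, all above sham (log2 fold change 2.96 ± 0.52 SE, limma adjusted p = 0.00091). Thbs4 (2.58), the osteopontin gene Spp1 (2.22), Ctgf (2.19), Timp1 (1.79), which inhibits matrix metalloproteinases, and Mfap4 (1.93) rose. Fbln1 (-0.48) and Thbs2 (-0.66) fell, and fibronectin, Fn1 (0.30), did not pass. In TGF-beta signalling 8 of 21 genes rose and 4 fell: the ligands Tgfb2 (1.19), Tgfb3 (0.54) and Inhba (2.85), the latent-complex protein Ltbp2 (2.70) and the receptor Tgfbr1 (0.93) were among the risers. Tgfbr3 (-0.62), Ltbp1 (-0.73), Smad3 (-0.50) and Bmp6 (-0.65) fell, and Tgfb1 was at 0.40 without passing. Of those that fell, Tgfbr3, Smad3 and Bmp6 did not pass without Sham+JP2NT replicate 3.

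**Figure D3:**
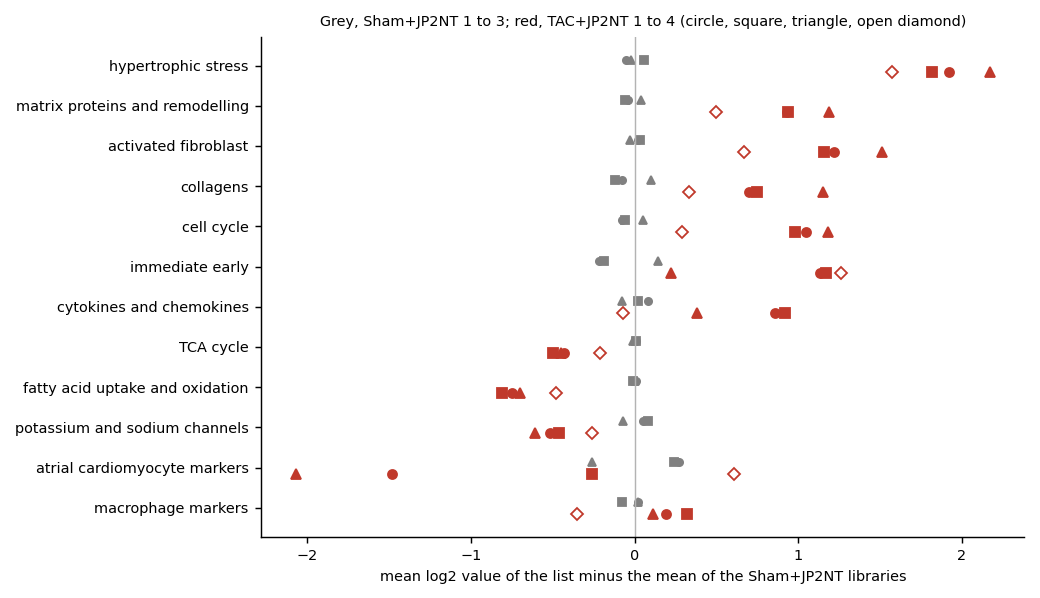
Mean log2 value of 12 gene lists in each JP2NT library, relative to the mean of the Sham+JP2NT libraries (grey, sham; red, TAC; circle, square, triangle and open diamond mark replicates 1 to 4). TAC+JP2NT replicate 4 is nearest to sham for the matrix, collagen, fibroblast, cell cycle, fatty acid and TCA cycle lists, but not for immediate early genes, where replicate 3 is nearest.

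In the vessel and immune lists most members did not pass, as was true of all tested genes, of which 16.1% rose and 15.8% fell. In angiogenesis 7 of 17 genes fell and 1 rose, with the receptors Kdr (-0.26), Tek (-0.37) and Tie1 (-0.25) lower and Vegfa (0.26) higher. None of these 4 passed without Sham+JP2NT replicate 3, nor Kdr and Vegfa without TAC+JP2NT replicate 4. Among cytokines and chemokines 4 of 21 tested genes rose and 2 fell, and 10 rose without TAC+JP2NT replicate 4. The list's mean was 0.86, 0.92, 0.38 and -0.07 relative to sham in TAC libraries 1 to 4, and replicate 4 was level with the sham libraries. Those that rose were the chemokine Ccl8 (1.59) and the receptors Cxcr6 (2.51), Il1r1 (0.99) and Osmr (0.74). The chemokines Ccl11 (-1.30) and Cxcl12 (-0.58) fell. Of these 6 only Cxcr6 passed without Sham+JP2NT replicate 3, where Ccl9 (0.73) also did (limma adjusted p = 0.0473). Ccl11 did not pass without TAC+JP2NT replicate 3 or 4, nor Ccl8 without TAC+JP2NT replicate 1 or Sham+JP2NT replicate 2. Il10 was listed at 0 in all 7 libraries. Of 17 interferon-stimulated genes 1 rose and 2 fell, of 10 MHC class I genes 1 rose and 2 fell, of 7 MHC class II genes none passed, and of 17 complement genes 2 rose, among them the regulator Cd55 (0.67). No complement gene passed without Sham+JP2NT replicate 3, and 4 rose without TAC+JP2NT replicate 4. Without that sham library 2 angiogenesis genes, 1 interferon-stimulated gene and no chemokine fell, and no MHC class I gene rose. With separate libraries 4 interferon-stimulated and 5 MHC class I genes fell.

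Stress and growth responses rose in parts. Of 19 immediate early genes, 7 rose and none fell (median 0.52). Atf3, a stress-induced repressor, had values of 36.5, 29.8 and 39.8 in the sham libraries and 315, 343, 244 and 323 in the TAC libraries. All 4 TAC libraries were far above sham (log2 fold change 3.03 ± 0.29 SE, limma adjusted p = 2.07e-05). Egr2 (3.23), Egr3 (2.89), Nr4a3 (2.55) and Nr4a1 (1.51) rose, and Fos (-0.50), Egr1 (-0.40) and Myc (0.15) did not pass. Nr4a1 was not called without Sham+JP2NT replicate 3 or without TAC+JP2NT replicate 4. The list's mean lay 1.13, 1.17, 0.22 and 1.26 above sham in TAC libraries 1 to 4, lowest in replicate 3. In the integrated stress response 6 of 17 genes rose, with its factor Atf4 at 0.86 and Nupr1 at 1.69, and 1 fell, the mitochondrial enzyme Shmt2 (-0.44). With separate libraries 3 of them fell, and 2 without TAC+JP2NT replicate 4. The chaperones of the endoplasmic reticulum did not move as a group, with 2 of 19 higher and 2 lower (1 without Sham+JP2NT replicate 3) and Hspa5 at -0.085.

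Of 28 cell cycle genes, 14 rose and 1 fell (median 0.74), and 5 rose without Sham+JP2NT replicate 3. The list's mean was 1.05, 0.98, 1.18 and 0.29 above sham in TAC libraries 1 to 4. The proliferation marker Mki67 had values of 50.4, 58.8 and 65 in the sham libraries and 198, 169, 232 and 64.9 in the TAC libraries, with TAC replicate 4 at the level of sham replicate 3 and the other TAC libraries well above (log2 fold change 1.32 ± 0.42 SE, limma adjusted p = 0.0265, and 0.0977 without Sham+JP2NT replicate 3). Ccna2 (1.78), Rrm2 (1.79) and the inhibitor Cdkn1a (1.77) rose with no overlap, while Cenpf, of the kinetochore, fell by 1.36. Rrm2 and Cenpf did not pass without that sham library. These are ventricle-wide values that do not show which cells divide.

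Among 15 heat shock genes 4 rose and 2 fell, and 8 rose with separate libraries. Hspa1a (1.93) and Hspa1b (2.18), near-identical copies that can share reads, rose but did not pass without Sham+JP2NT replicate 3, which left 2 of the list rising and none falling, nor Hspa1b without TAC+JP2NT replicate 1 or 2. Antioxidant and NADPH oxidase genes were mixed, with 7 of 20 higher, among them Gpx4 (0.53) and Nqo1 (0.43), and 5 lower, among them Sod1 (-0.43) and Cat (-0.27). Without Sham+JP2NT replicate 3 these counts were 2 and 2. In autophagy and lysosome 6 of 23 genes rose and 6 fell, against 1 and 3 without it, and Nqo1 and Cat did not pass there. Of 9 genes of the atrophy ligases and FOXO, 1 rose, Fbxo30 (0.37), and 3 fell, including the ubiquitin ligase Trim63 (-0.42). Neither Fbxo30 (limma adjusted p = 0.118) nor Trim63 (0.0831) passed without that sham library, where 1 member fell and none rose, and Fbxo30 did not without TAC+JP2NT replicate 1 or 2. With separate libraries 5 fell. The clock list had 2 of 19 genes higher, Clock (0.85) and Bhlhe40 (0.49), and 2 lower, Cry2 (-0.68) and Tef (-0.57), below the 16.1% and 15.8% of all tested genes. Bhlhe40 and Tef (0.0575) did not pass without the same sham library, while 4 rose and 4 fell with separate libraries.

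Markers of cell types moved in part. In ventricle RNA, fewer cells of a type and less RNA per cell cannot be told apart. The 14 ventricular cardiomyocyte markers were abundant in every library and summed to 1410840 to 1440700 in the sham and 1017270 to 1217500 in the TAC libraries, with 2 higher and 6 lower, or 1 and 3 without Sham+JP2NT replicate 3. Of 12 resident fibroblast markers, 5 rose and 1 fell, or 3 and none without that sham library, yet their sum, 29555 to 33292 in the sham and 28129.6 to 31423 in the TAC libraries, overlapped. Pi16 (0.91) and Serpinf1 (0.92) rose, Gsn fell by 0.43, and the lineage markers Pdgfra (0.18) and Tcf21 (-0.33) did not pass. The part of fibroblast number in the rise of the matrix genes was not tested.

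The 20 macrophage markers summed to 5211 to 5657 in the sham and 4366 to 7795 in the TAC libraries, with 1 riser, Lgals3 (0.94), and none lower, and 4 higher without TAC+JP2NT replicate 4. Endothelial markers had 4 of 13 lower (sum 29628 to 30929 in the sham and 26312 to 30243 in the TAC libraries), pericyte markers 3 of 10 (sum 16632 to 17778 in the sham and 12937 to 15980.4 in the TAC libraries) and smooth muscle markers 3 of 9, none of them with a riser. No endothelial, endocardial or lymphatic marker and 1 smooth muscle marker passed without Sham+JP2NT replicate 3. With separate libraries 5 pericyte markers were lower, and 2 endothelial markers were without TAC+JP2NT replicate 4. Smooth muscle markers summed to 32902 to 33945 in the sham and 30276 to 34957 in the TAC libraries. Epicardial and mesothelial markers rose in 3 of 8 (sum 231 to 253 in the sham and 281 to 473 in the TAC libraries). Neural and glial markers fell in 4 of 6 (median -1.07, sum 254 to 294 in the sham and 88.3 to 201 in the TAC libraries), and 1 fell without Sham+JP2NT replicate 3. They included the Schwann cell factor Sox10 (-1.43). Endocardial markers had 1 higher and 1 lower of 6 (sum 5274 to 5744 in the sham and 4312 to 5470.4 in the TAC libraries), and lymphatic markers 1 and 2 of 7 (sum 1873 to 1964 in the sham and 1796 to 2056 in the TAC libraries).

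Blood and immune markers were sparse. Of 4 neutrophil and monocyte, 1 T and NK cell, 3 B and plasma cell and 5 mast cell markers tested, none passed. Their sums were 52.6 to 68.9 in the sham and 34.3 to 159.9 in the TAC libraries for neutrophils and monocytes, with Ly6g at 0 in all 7, 33.2 to 47.1 in the sham and 25.7 to 50.7 in the TAC libraries for T and NK cells, 60.8 to 92.2 in the sham and 67.7 to 84.1 in the TAC libraries for B and plasma cells, and 135 to 171 in the sham and 132 to 171 in the TAC libraries for mast cells. Erythroid markers summed to 8646 to 9986 in the sham and 7866 to 18781 in the TAC libraries, with Hbb-bt higher (1.10). Of 5 skeletal muscle markers tested, Acta1 rose and Ckm and Atp2a1 fell (sum 45363 to 48488 in the sham and 68935 to 86726 in the TAC libraries, nearly all Ckm and Acta1, which the ventricle also expresses), and Myh4 was at 0 in all 7. Hbb-bt and Atp2a1 did not pass without Sham+JP2NT replicate 3.

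Atrial and fat markers did not separate by surgery but varied between TAC libraries. The atrial light chain Myl7 had values of 2218, 2279 and 1295 in the sham libraries and 278, 2655, 249 and 3180.5 in the TAC libraries, and Myl4 had 3035, 3035 and 1988 in the sham libraries and 602, 3859, 703 and 5786 in the TAC libraries. TAC replicates 1 and 3 were below every sham library and replicates 2 and 4 above. The 9 atrial markers summed to 5305 to 8130.2 in the sham and 1828 to 12679 in the TAC libraries, and of these only Tbx5, also a ventricular factor, passed, which fell, while 3 fell without TAC+JP2NT replicate 4. Nppa, also an atrial gene, was highest in TAC replicate 3 (44063), where the atrial light chain Myl7 was lowest. In TAC replicate 1, where Myl7 was nearly as low (278), Nppa was the lowest of the TAC libraries (20898). Among the sham libraries both genes were lowest in replicate 3. The part of atrial tissue in the Nppa values was not tested. Adipocyte markers split the same way, with Cfd at 18.6, 23.3 and 23.2 in the sham libraries and 3.17, 212, 10.5 and 176 in the TAC libraries and the list's sum at 53.6 to 63.3 in the sham and 6.75 to 362 in the TAC libraries. None of the 5 adipocyte markers passed.

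Outside the lists, the genes with the largest changes included several of known cardiac or metabolic roles. Those that rose were Lrp8 (3.94), a lipoprotein and reelin receptor, Nlrc3 (3.42), a regulator of innate signalling, Tbx15 (3.22), a T-box factor, the water channel Aqp8 (3.17), Star (3.03), which carries cholesterol into mitochondria, Dio2 (2.83), which activates thyroid hormone, Mob1b (2.61) of the Hippo pathway, the potassium channel Kcnj14 (2.50) and the transferrin receptor Tfrc (2.48). Dio2 had values of 13.6, 13.7 and 18.5 in the sham libraries and 113, 115, 198 and 78.5 in the TAC libraries and Tfrc of 303, 297 and 537 in the sham libraries and 2689, 2903, 1806 and 1823 in the TAC libraries. In both every TAC library exceeded every sham library, which the rule that chose these genes required. Replicate 4 was lowest for Dio2. Zbed6 rose (4.11), but it lies within Zc3h11a and reads of the 2 genes may be shared.

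Those that fell included Acot1 (-3.06), a cytosolic thioesterase whose reads may be shared with Acot2, Uckl1os (-2.69), an antisense transcript of Uckl1, the nicotinic receptor Chrna2 (-2.51), the dopamine receptor Drd2 (-2.43), the kinase Sbk2 (-2.25), Cyp26b1 (-2.17), which degrades retinoic acid, Klhl33 (-2.04) and the sodium channel Scn10a (-1.90). Sbk2 and Scn10a did not pass without Sham+JP2NT replicate 3.

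The same TAC effect under GFP was measured in separate libraries. There 6357 genes (48.1%) passed, 3074 higher (23.3%) and 3283 lower (24.8%). Of these, 95% had the same sign under JP2NT and 3509 (55.2%) also passed there with that sign, which was 83.1% of the JP2NT list. The sham side has n = 3 under GFP and n = 2 under JP2NT, so the 2 counts of genes passed do not rest on equal sample numbers. With all libraries separate, 6467 genes passed under GFP and 4174 of them also passed under JP2NT with the same sign. Among all tested genes 81% had the same sign. Of the 814 genes that rose at least 2-fold under GFP, 65.2% passed in the same direction under JP2NT, with a median log2 change of 1.44 under GFP and 0.99 under JP2NT. Of the 399 that fell at least 2-fold, 65.7% passed, with medians of -1.29 and -0.90. Choosing genes by their GFP change favours large GFP values. Of the genes called under GFP, 79.5% had a JP2NT change nearer to 0, and of those called under JP2NT, 53.8%, against 60.9% of all tested genes. Across all 13212 genes the 2 changes correlated with Pearson's r = 0.773 and Spearman's rho = 0.779, a description across genes, which are not independent replicates.

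**Figure D4:**
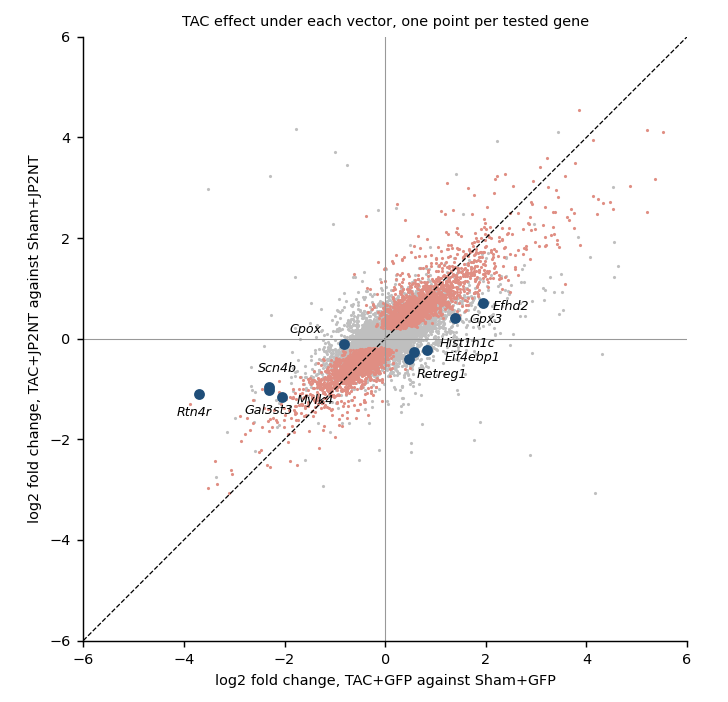
Log2 fold change of TAC against sham under GFP (x axis) and under JP2NT (y axis), 1 point per tested gene, with 2 genes outside the axes. Red points passed the limma test under JP2NT, whether or not they passed under GFP. Blue points are the 10 genes whose change differed between vectors by the limma test, and the dashed line marks equal changes.

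The difference between the 2 TAC effects was tested for every gene, and 10 of 13212 (0.0757%) passed, against 1505 (11.4%) at an unadjusted p under 0.05. With separate libraries 127 (0.959%) passed. Without Sham+JP2NT replicate 3 limma called 0, with 1087 at an unadjusted p under 0.05, and with libraries otherwise separate it called 78. The 10 genes named next also passed with all libraries separate (limma adjusted p from 0.001 to 0.0172).

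Among those 10, 5 rose under GFP and rose less or not at all under JP2NT. Eif4ebp1, which represses translation when mTOR is inactive (chr8:27260329-27276674, plus strand), was at 887, 918 and 827 against 683, 726, 764 and 788 for sham against TAC under JP2NT. All TAC libraries were slightly below all sham libraries and the means were 865 ± 53.4 and 740.1 ± 45.6 (SD, n = 2 and 4), while under GFP they were 707 ± 52.5 and 1253 ± 118 (SD, n = 3 and 4). The log2 changes were -0.23 and 0.82, a difference of -1.05 (95% interval -1.32 to -0.78, limma adjusted p = 0.00852). Retreg1, an ER-phagy receptor, fell under JP2NT (-0.41) and rose under GFP (0.47; limma adjusted p of the difference = 0.047). It was 1 of 3 genes called with opposite signs, with Foxc1 (-0.59 and 0.50) and Fam32a (-0.23 and 0.22). The linker histone Hist1h1c was at -0.26 under JP2NT and 0.58 under GFP (limma adjusted p of the difference = 0.047). Efhd2, a calcium-binding actin regulator, rose under both, by 0.71 and 1.95 (limma adjusted p of the difference = 0.0257), and so did the extracellular glutathione peroxidase Gpx3, by 0.42 and 1.39 (0.0432). The changes of Retreg1 and Gpx3 under JP2NT did not pass without Sham+JP2NT replicate 3.

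The other 5 fell under GFP, by more than under JP2NT. Mylk4, a myosin light chain kinase of heart and skeletal muscle (chr13:32700834-32783954, minus strand), had values of 4442, 4556 and 4456 in the sham libraries and 1857, 1896, 1979 and 2328 in the TAC libraries under JP2NT. It fell (log2 fold change -1.16 ± 0.085 SE, limma adjusted p = 2.14e-06), and under GFP it went from 4436 ± 77.2 to 1076 ± 59.4 (SD, n = 3 and 4), a log2 change of -2.04. The difference was 0.89 (95% interval 0.64 to 1.13, limma adjusted p = 0.00852). The sodium channel subunit Scn4b had values of 987, 1044 and 1079.7 in the sham libraries and 545, 597, 524 and 500.2 in the TAC libraries under JP2NT, where all TAC libraries lay close together and below sham. Its log2 change was -0.95 under JP2NT and -2.32 under GFP (difference 1.36, 95% interval 0.98 to 1.75, limma adjusted p = 0.00895). The Nogo receptor Rtn4r changed by -1.10 and -3.71 (limma adjusted p of the difference = 0.0257), from sham means of 76.8 ± 24.9 (SD, n = 2) under JP2NT and 136 ± 38.5 (SD, n = 3) under GFP. The sulfotransferase Gal3st3 changed by -1.02 and -2.30 (0.047), and Cpox, a mitochondrial enzyme of heme synthesis, was at -0.11 and -0.82 (0.0432). The fall of Rtn4r under JP2NT did not pass without Sham+JP2NT replicate 3.

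For the genes of hypertrophy the difference between vectors did not pass with the pair averaged. It was -2.005 for Nppa (95% interval -2.97 to -1.04, limma adjusted p = 0.115, and 0.0317 with separate libraries) and -1.06 for Myh7 (-1.64 to -0.48, 0.157 and 0.049). For Myh6 it was 0.39 (-0.21 to 0.99), for Atp2a2 0.32 (-0.078 to 0.72), for Postn -1.22 (-2.20 to -0.25) and for Ucp3 0.25 (-0.65 to 1.15), with limma adjusted p = 0.649, 0.545, 0.323 and 0.873. Acta1 went the other way, rising by 3.27 under JP2NT and 2.38 under GFP (difference 0.89, -0.14 to 1.92, limma adjusted p = 0.51). The differences of Nppb and Ankrd1 were small, -0.23 and -0.27 (limma adjusted p = 0.8 and 0.695). Outside these genes, Tfrc rose more under JP2NT (difference 1.29, limma adjusted p = 0.161, and 0.049 with separate libraries). Eno1 fell more under JP2NT (-0.52, 0.0818 and 0.0282). Side by side, hypertrophic stress genes had 14 risers under GFP and 13 under JP2NT, and fatty acid oxidation had 24 and 24 that fell. Matrix proteins had 30 and 17 that rose, collagens 14 and 9, and complement 9 and 2. Chaperones of the endoplasmic reticulum had 9 and 2 that fell. Of all tested genes, 23.3% rose and 24.8% fell under GFP, against 16.1% and 15.8% under JP2NT. With separate libraries the JP2NT counts were 24 matrix proteins and 15 collagens, and without TAC+JP2NT replicate 4 they were 24 and 17, which for collagens is above the 14 under GFP in the averaged fit. Without Sham+JP2NT replicate 3 they were 14 and 4. Complement had 4 risers without that TAC library and none without that sham library, and 1 chaperone fell without the latter. The median log2 change of the collagens was 0.63 under GFP and 0.62 under JP2NT. The difference in these counts between vectors was not tested.

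The genes that changed at least 2-fold under GFP and whose JP2NT change was nearest 0 are given as values, because that rule chose them. On the rising side they were Igfbp3 (2.19 under GFP, 0.072 under JP2NT), Rasd1 (1.45, -0.001), Cd14 (1.12, 0.057), Rasl11b (1.05, 0.04) and Mad2l1 (1.00, -0.025). On the falling side they were Itgb6 (-1.28, 0.16), Igsf9b (-1.13, -0.072), Aplnr (-1.12, -0.11), Gzmm (-1.07, -0.14) and Inka2 (-1.03, 0.15). Igfbp3, an insulin-like growth factor binding protein, had values of 340.2, 393 and 313 in the sham libraries and 279, 259, 470.1 and 472 in the TAC libraries under JP2NT. The groups overlapped, with TAC replicates 1 and 2 below and replicates 3 and 4 above every sham value. None of these 10 passed the test of the difference with the pair averaged. With separate libraries only Igfbp3 did (limma adjusted p = 0.0369).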

How the data were processed

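Polyadenylated RNA was sequenced as stranded paired-end libraries. Per the submitters' processing notes, FastQC 1.0.0, STAR 2.6.1a, Salmon and mm10 were used; no source used here names the Salmon version, the annotation or the scaling software. The deposited signal consists of counts that the authors divided by scale factors, separately within the 7 GFP and 7 JP2NT libraries, as equal median-of-ratios factors within each set show. Whole reads could not be recovered, so limma replaced the planned count test. Reads were estimated from the value of 1 read.

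Of 24972 genes listed, 18188 were above 0; 26 names had been turned into dates and 2 were duplicated. Values were rescaled jointly by unweighted trimmed means of M-values (30% of ratios and 5% of levels trimmed). Those reaching 10 in 3 or more samples (13212 genes) were tested on log2(value + 1) with limma-trend (limma 3.58.1, R 4.3.3), 1 mean per group and 1 spread for all, Sham+JP2NT replicates 1 and 2 averaged (degrees of freedom: 9 residual, 5.71 prior). Within groups, the median SD was 0.0835 in Sham+JP2NT and 0.176 in TAC+JP2NT, so the shared spread is not equal to either. "Rose" and "fell" mean a two-sided Benjamini-Hochberg adjusted p under 0.05. Jph2 was also compared by exact permutation. The fit was also run on simulated data, with all libraries kept separate and 1 spread for all. That run does not test the fit with the sham pair averaged or with unequal spreads, and its outcome is not reported here.

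The members and the 54 gene lists (36 processes, 18 cell types) were chosen with earlier results of these data known. Named genes were 11 set by hand, up to 3 called members per process list with the largest change, 10 rising and 10 falling called genes outside the lists, those called in the difference between vectors, and 10 with a 2-fold GFP change and a JP2NT change nearest 0. The genes outside the lists were required to reach a minimum group mean and to have all TAC libraries on the same side of all sham libraries. Gene positions are from GENCODE M21, promoters from RefSeq on GRCm38.p6. Some genes that these rules select are not reported here.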

Additional observations from a re-analysis of the deposited data

Results flagged for a closer look

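In a group of 4 libraries, 1 value was called far from the rest when its gap to the nearest exceeded Dixon's 95% critical share of the group's range, which chance passes in about 1 of 20 groups. Among the 4 TAC+JP2NT libraries, 14 of 195 groups examined (143 named genes and 52 list means) passed, and in 10 of them the distant library was replicate 4. The share was 0.976 for Acot2, 0.907 for Slc27a1, 0.897 for Atp5b, 0.896 for Edem1, 0.887 for Mccc2, 0.885 for the circadian clock list, 0.869 for Clock, 0.857 for Acot1, 0.844 for Ppm1k and 0.833 for the list of glycolysis and glucose uptake. Replicate 3 was distant for the immediate early list (0.875) and Pfkp (0.837), and replicate 2 for the list of atrophy ligases and FOXO (0.875) and Bst1 (0.835).

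The TAC effects under JP2NT and GFP differed by the limma test for 10 genes. On the log2 scale the JP2NT effect minus the GFP effect was 2.61 for Rtn4r, 1.36 for Scn4b, 1.28 for Gal3st3, 0.89 for Mylk4, 0.71 for Cpox, -0.84 for Hist1h1c, -0.89 for Retreg1, -0.97 for Gpx3, -1.05 for Eif4ebp1 and -1.24 for Efhd2. None of them passed without Sham+JP2NT replicate 3 when the other 2 sham libraries were averaged. With libraries otherwise separate, 78 genes passed without it.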

How the results depend on the processing

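The sham side rests on an averaged pair and 1 further library. The 4221 called genes take their spread from all 4 groups. With the JP2NT libraries alone and the pair averaged, 3109 of 12833 genes were called, and 14 named genes lost the call. Averaging the closest TAC libraries as well gave 3476 of 13117. Leaving out 1 library at a time gave 1870 (without Sham+JP2NT replicate 3, which leaves 1 averaged sham sample assumed to vary like the other groups) to 4980 (without TAC+JP2NT replicate 4) called genes, 1712 to 4073 genes shared with GFP, and 0 (without Sham+JP2NT replicate 3) to 53 (without TAC+JP2NT replicate 3) differing between vectors. That last count was 10 in the fit reported, 127 with 14 separate libraries, 4 with the closest TAC libraries averaged too, 76 with the spread weighted by group, 0 without an intensity trend (1436 at an unadjusted limma p under 0.05) and 6 without a filter. In 2 alternatives chosen after seeing the data, with libraries otherwise separate, it was 78 without Sham+JP2NT replicate 3 and 140 without TAC+JP2NT replicate 4. The cause was not tested. At equal totals the medians of the interferon-stimulated (0.07), MHC class II (0.04), ER chaperone (0.09), endothelial (0.02) and T and NK cell (0.08) lists turned positive.

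Same-numbered sham and TAC deviations correlated at 0.03, 0.06 and 0.02. Such values cannot show whether replicate numbers pair the libraries, because deviations within a small group depend on each other. With the replicate block and 14 separate libraries, 5498 genes were called and 77 differed between vectors.

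Of 4284 values of 143 named genes over the settings, 4096 kept their direction and side of the threshold, 132 lost the call, 23 gained it and 33 changed sign; 29 genes lost it without Sham+JP2NT replicate 3. Sign changes concerned 8 genes chosen for a change near 0. Rasd1 (-0.001) was at 0.1535 with the block, 0.0002 as deposited, 0.1036 at equal totals, 0.0022 with a pseudocount of 5 and 0.0301 without TAC+JP2NT replicate 4, otherwise separate. Mad2l1 (-0.0251) was at 0.0137 with separate libraries, 0.0031 with TAC libraries averaged, 0.0797 at equal totals, and 0.07 and 0.0034 without Sham+JP2NT replicate 3 or TAC+JP2NT replicate 4, otherwise separate. Cd14 was at -0.0044 with TAC libraries averaged. Igfbp3 was at -0.0266 with the block, and -0.0391 and -0.099 without those libraries. Igsf9b was at 0.0338 at equal totals and 0.03 without that sham library, and Aplnr at 0.0254 without that TAC library. Leaving out 1 library gave -0.1509 to 0.1654 for Rasd1, -0.1382 to 0.1092 for Mad2l1, -0.1793 to 0.1402 for Rasl11b, -0.0386 to 0.3293 for Cd14, -0.0633 to 0.2242 for Igfbp3, -0.1324 to 0.0285 for Igsf9b, -0.195 to 0.0544 for Aplnr and -0.0096 to 0.3656 for Itgb6.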
